A study of Mus musculus with 9 samples.

Results

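The genes of the semaphorin, plexin and neuropilin families were followed through irradiated mouse muscle. They comprise 31 of the 49568 gene rows: 7 secreted class 3 semaphorins, 13 membrane semaphorins of classes 4 to 7, 9 plexins and 2 neuropilins. The families were chosen by the measured level of Sema6a, which was lower in irradiated muscle in these libraries, so the values of Sema6a are a description and carry no test. The comparisons of the other members use the same libraries that drew attention to the families. Low counts kept Sema4f, Sema4g and Sema5b out of the tests, and 28 members were among the 14986 genes tested.

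The tissue was the gastrocnemius of the calf, taken from C57Bl6J mice about 8 weeks old for sequencing of total RNA. RL is the irradiated muscle and CL the same muscle of the opposite limb, both from 3 mice that received 3 sessions of 8.2 Gy at 4 weeks of age and were taken 3 weeks later. CTL is the muscle of 3 unirradiated mice (0 Gy). Same-numbered RL and CL libraries come from the same mouse, and RL, CL and CTL hold 3 libraries each from 6 mice in all. CL muscle belongs to an irradiated animal, and the dose that reached it is not given in the sources used here.

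Semaphorins are extracellular guidance cues, and plexins are the receptors that pass their signal to small GTPases and the cytoskeleton. Most class 3 semaphorins are secreted proteins that need a neuropilin as a co-receptor, which also binds vascular endothelial growth factors, whereas membrane semaphorins mostly bind plexins directly. In muscle these families are known from motor nerve terminals, blood vessels, immune cells and satellite cells, from which muscle fibres regenerate.

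Libraries held 30.8 to 44.6 M counts. Levels are given as CPM, counts scaled to a library total that is adjusted for composition, and differences as log2 fold changes whose standard error is abbreviated SE. A gene was called at an adjusted p under 0.05 over all tested genes in edgeR's quasi-likelihood test. Fits of RL against CL do not pair the limbs by mouse, except where the mouse is named as a block. CL 1 stood apart. Its correlations with the remaining libraries had a median of 0.969, and the medians of those libraries ran from 0.979 to 0.987. The summed level of 8 lymphocyte markers (T cell, B cell and cytotoxic cell genes) was 19.9 CPM in CL 1 and 0.0892 to 0.534 CPM in the other 8 libraries. Each of the 8 markers was at 0 in at least 1 of the other libraries, and none had counts enough for the test. For several genes where leaving CL 1 out changes a call or a direction, the value without it is also given. Ranges with single libraries left out are given at the end for described members that changed sign.

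Beside the marker counts that follow, 0.514% of all tested genes were called between RL and CTL. An unadjusted p under 0.05 was reached by 12.0%, 6.56% with higher and 5.44% with lower values in RL. The libraries of RL and CTL did not overlap for 20.7% of single genes. All 10 markers of muscle fibres were detected in every library. They summed to 161692 to 191740 CPM in RL, 169534 to 214473 CPM in CL and 216065 to 238066 CPM in CTL, so RL lies below CTL without overlap, with 0 of the 10 called and 5, all lower in RL, at an unadjusted p under 0.05. Markers of pericytes and smooth muscle summed to 551 to 599.6 CPM in RL, 521 to 661 CPM in CL and 646 to 693 CPM in CTL, again with RL below CTL, and 1 of 8, Pdgfrb, fell between RL and CTL. Markers of fibro-adipogenic progenitors overlapped between the groups, at 1065 to 1272 CPM in RL, 1135 to 2129 CPM in CL and 950.3 to 1351 CPM in CTL. Macrophage markers summed to 105.6 to 149.9 CPM in RL, 72.9 to 137 CPM in CL and 58.6 to 84.5 CPM in CTL, and no marker of that list was at 0 in any library. All 10 had positive log2 fold changes between RL and CTL, and 2 of them, Ccr2 and Itgam, rose. Satellite cell markers summed to 27.6 to 34.9 CPM in RL, 34.8 to 42.8 CPM in CL and 34.2 to 38.4 CPM in CTL, and the groups overlap. Of the 8, 3 fell between RL and CTL, Pax7, Calcr and Chodl. In that comparison 6 of the 8 had negative and 2 positive log2 fold changes. Tenocyte markers, genes of tendon cells, summed to 79.9 to 92.2 CPM in RL, 120 to 132 CPM in CL and 117 to 164 CPM in CTL, and 1 of 8, Cilp2, fell between RL and CTL. Markers of Schwann cells, the glia of motor nerves, summed to 38.0 to 53.6 CPM in RL, 47.2 to 62.2 CPM in CL and 57.3 to 64.3 CPM in CTL, with 0 of 10 called. Endothelial markers overlapped between the groups, at 175 to 211 CPM in RL, 168 to 184 CPM in CL and 169 to 201 CPM in CTL. In bulk muscle, fewer cells of a type and less RNA per cell cannot be told apart.

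**Figure D1:**
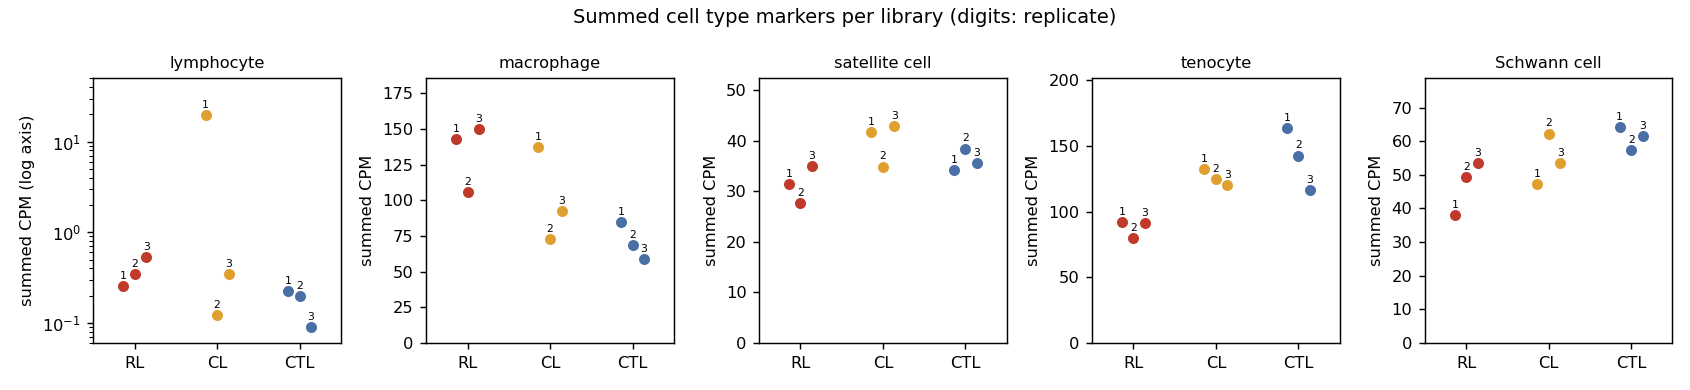
Summed CPM of 5 lists of cell type markers in each library, with RL left of CL and CTL, digits for the replicate, and a log axis for the lymphocyte list only. CL 1 stands at 19.9 CPM for lymphocyte markers, against at most 0.534 CPM in any other library, and RL lies below CL and CTL for tenocyte markers.

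Promoter windows from RefSeq (GRCm38.p6), reaching from 250 bases before to 50 after a transcript start, were matched for 26 members in 37 windows. The windows of Sema3a and Nrp2 are shown because they belong to the members, other than Sema6a, with the smallest p between RL and CTL, 1 with lower and 1 with higher values in RL. Both are on the plus strand, at chr5:13396534-13396833 for Sema3a and chr1:62703067-62703366 for Nrp2. The Nrp2 window holds the annotated start of its gene at 62703285. The Sema3a window lies inside its gene, which is annotated from 13125414 to 13602565, and far from that start. The windows therefore do not lie at like places in their genes. Capitals mark GGGCGG on either strand, the core that the factor Sp1 is known to bind, and CANNTG, the E-box bound by myogenic factors such as MyoD.
Sema3a: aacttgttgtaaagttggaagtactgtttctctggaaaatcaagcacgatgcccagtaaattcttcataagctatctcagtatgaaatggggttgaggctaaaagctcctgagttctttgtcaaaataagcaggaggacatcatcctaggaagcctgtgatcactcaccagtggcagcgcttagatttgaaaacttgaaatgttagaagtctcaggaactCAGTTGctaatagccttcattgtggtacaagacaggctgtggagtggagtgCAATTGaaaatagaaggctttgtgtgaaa
Nrp2: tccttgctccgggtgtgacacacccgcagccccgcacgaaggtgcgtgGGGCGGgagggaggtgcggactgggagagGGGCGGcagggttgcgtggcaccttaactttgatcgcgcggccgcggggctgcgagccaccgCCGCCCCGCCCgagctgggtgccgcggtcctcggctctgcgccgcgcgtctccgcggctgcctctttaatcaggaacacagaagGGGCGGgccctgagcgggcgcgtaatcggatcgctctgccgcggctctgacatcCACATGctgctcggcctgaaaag
The Sema3a window has a GC content of 41.3%, 2 CpG, no GGGCGG and 2 CANNTG. The Nrp2 window has a GC content of 70.7%, 37 CpG, 5 GGGCGG, of which 2 overlap in 1 run, and 1 CANNTG. Among all 32851 windows of this length 35.7% hold GGGCGG and 72.3% hold CANNTG, while 27 and 21 of the 37 member windows hold them. A match is a run of letters and no sign of binding.

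Muscle held a few abundant members and many scarce ones. Per kilobase of exon, the order over all 9 libraries was led by Sema3c at 9.10 ± 1.37 CPM per kilobase, followed by Nrp1 at 4.31 ± 0.366, Plxnd1 at 3.52 ± 0.611 and Sema6c at 3.43 ± 0.487 CPM per kilobase (SD, n = 9). Plxnd1 and Sema6c do not differ beyond their spread, and neither do most neighbours further down the order. Plxna1 at 2.73 ± 0.407 CPM per kilobase and Sema6d at 1.83 ± 0.225 CPM per kilobase came next. The lowest were Sema5b, Sema4g and Sema4f, whose libraries held 1 to 11 counts each. Divided by the longest transcript instead of all exons, the level of Nrp1 became 11.6 CPM per kilobase, next to Sema3c at 11.8, and both kept their ranks.

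**Figure D2:**
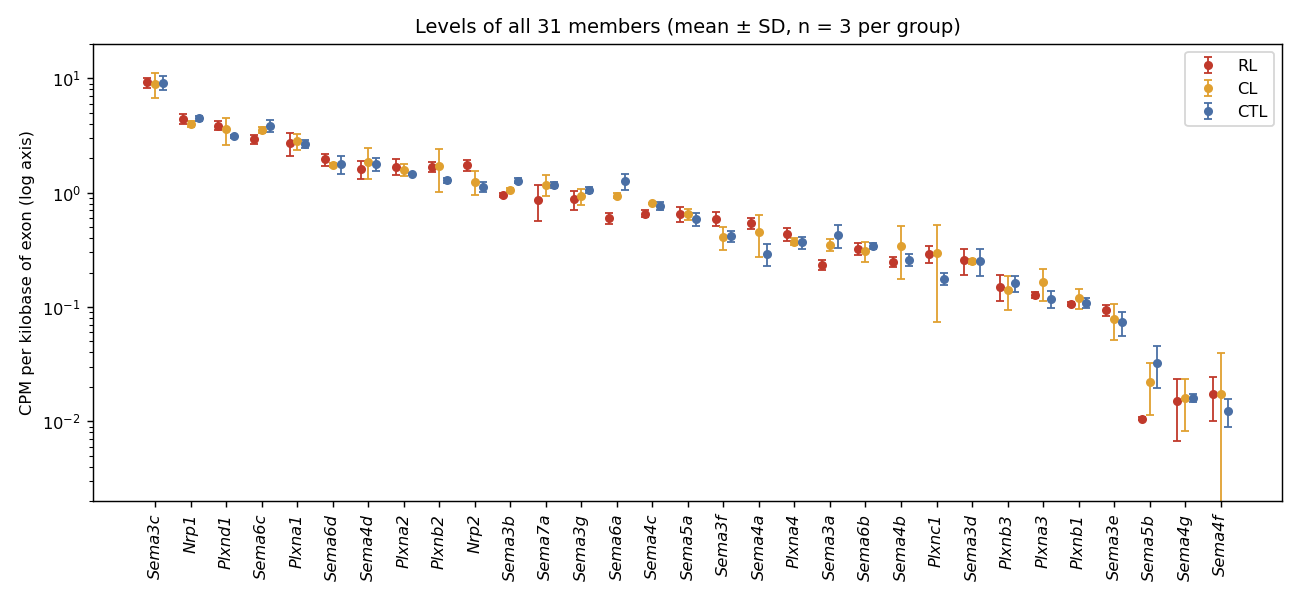
Level per length of all 31 members (CPM per kilobase of exon, log axis) as mean and SD of 3 libraries in RL, CL and CTL, ordered by the mean of all 9 libraries. Sema3c leads at about 9 CPM per kilobase in every group and the 3 untested members lie lowest, with the lower bar of Sema4f in CL running off the log axis.

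Sema6a, a transmembrane semaphorin that binds plexins A2 and A4 (chromosome 18, 47235598 to 47368870, minus strand, GRCm38), was lowest in irradiated muscle and intermediate in the opposite limb. It had 4.71, 5.88 and 5.12 CPM in RL, 8.31, 7.79 and 8.64 CPM in CL, and 12.0, 12.0 and 9.01 CPM in CTL. The 3 groups do not overlap, and CTL 3 was the lowest CTL library. Mean and SD over 3 libraries were 5.24 ± 0.592 CPM in RL, 8.24 ± 0.428 CPM in CL and 11.0 ± 1.73 CPM in CTL. The log2 fold change was -1.07 ± 0.14 (SE) between RL and CTL, -0.65 ± 0.14 between RL and CL, and -0.42 ± 0.13 between CL and CTL. These 3 values share libraries and are not separate evidence. Between RL and CTL it ranged from -1.20 to -1.0 when single libraries or the mouse of CL 1 and RL 1 were left out or the fit was changed.

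Within mice, Sema6a was lower in the irradiated limb of all 3 animals, by log2 ratios of -0.82, -0.41 and -0.75. No annotated gene overlaps its span, so its counts do not depend on how overlapping genes were treated. Among the other class 6 members the log2 fold change between RL and CTL was -0.10 ± 0.22 for Sema6b, -0.39 ± 0.11 for Sema6c and 0.14 ± 0.14 for Sema6d (SE). The receptors Plxna2 and Plxna4 had log2 fold changes of 0.22 ± 0.13 (SE, adjusted p = 0.550) and 0.24 ± 0.14 (SE, adjusted p = 0.552) in the same comparison. Marker sums of tenocytes, Schwann cells, pericytes and smooth muscle, and muscle fibres were all lower in RL than in CTL without overlap, as given above, and their part in the Sema6a values was not tested.

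**Figure D3:**
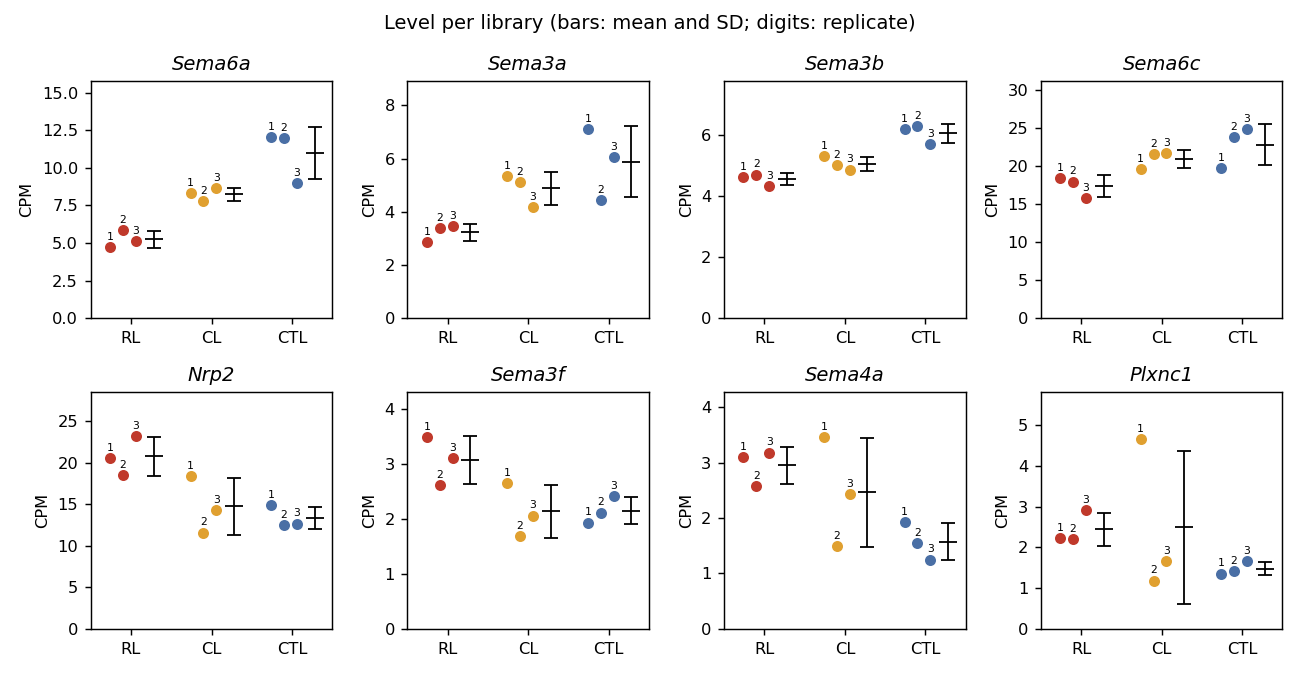
CPM in each library for 8 members, with RL left of CL and CTL, digits for the replicate, and bars for the mean and SD of 3 libraries. Sema6a is lower in RL than in CL and lower in CL than in CTL without overlap, Nrp2 is highest in RL, and CL 1 at 4.65 CPM sets the mean of Plxnc1 in CL.

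Sema3a, the secreted repellent of motor axons that satellite cells also release in rodents (chromosome 5, 13125414 to 13602565, plus strand), had low values in all irradiated libraries. It stood at 2.87, 3.38 and 3.45 CPM in RL, 5.35, 5.10 and 4.17 CPM in CL, and 7.10, 4.45 and 6.07 CPM in CTL, from 112 to 283 counts per library. RL lies below both other groups without overlap, while CL and CTL overlap. The mean was 3.23 ± 0.317 CPM in RL, against 5.87 ± 1.34 CPM in CTL (mean ± SD, n = 3 each), and the log2 fold change -0.86 ± 0.18 (SE). By edgeR this missed the threshold, with adjusted p = 0.0612, whereas DESeq2 gave adjusted p = 0.00598. Without CL 1 the edgeR value was adjusted p = 0.0160, and with the 6 libraries of RL and CTL alone it was 0.0211. Removing RL 1 along with CL 1, which share an animal, gave an edgeR value of 0.0673. Leaving out CL 2 gave 0.0460 and leaving out CL 3 gave 0.0844. With any single RL or CTL library left out Sema3a was not called, at 0.106 to 0.241.

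Sema3a averaged 4.87 ± 0.621 CPM in CL (SD, n = 3), and the log2 fold change between RL and CL was -0.59 ± 0.18 (SE, adjusted p = 0.752), or -0.50 (adjusted p = 0.442) with CL 1 left out. With the mouse as a block it was -0.59 (adjusted p = 0.179). All 3 mice had the lower value in the irradiated limb, with log2 ratios of -0.90, -0.59 and -0.28. In the authors' deposited table of RL against CTL, Sema3a had a log2 fold change of -0.70 with adjusted p = 6.42e-04. As given above, 3 of the 8 satellite cell markers fell in RL, while 2 had positive log2 fold changes against CTL. The part of these markers in the Sema3a values was not tested.

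Sema3b and Sema3f, class 3 ligands that bind neuropilins, are neighbours on chromosome 9, 72.3 kb apart on the minus strand, and had opposite signs. Sema3b (107597674 to 107609229) had 4.63, 4.70 and 4.32 CPM in RL, 5.31, 5.01 and 4.87 CPM in CL, and 6.20, 6.28 and 5.71 CPM in CTL. Its 3 groups do not overlap. The log2 fold change was -0.41 ± 0.11 (SE, adjusted p = 0.135) between RL and CTL and -0.26 ± 0.11 (adjusted p = 0.734) between CL and CTL.

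Sema3f (107681500 to 107710475), a ligand of neuropilin 2, had 3.48, 2.62 and 3.11 CPM in RL, 2.65, 1.69 and 2.06 CPM in CL, and 1.93, 2.11 and 2.41 CPM in CTL. RL lies above CTL without overlap, and CL 1 reaches into the range of RL. The log2 value of 0.51 ± 0.20 (SE, adjusted p = 0.311) for RL against CTL did not pass, nor did that of 0.52 ± 0.20 (SE, adjusted p = 0.999) for RL against CL. With CL 1 left out RL against CL gave 0.73 (adjusted p = 0.132), and with the mouse as a block 0.53 (adjusted p = 0.318). The irradiated limb had the higher value in all 3 mice.

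Sema3c, a ligand of both neuropilins and the most abundant member per length (chromosome 5, 17574281 to 17730268, plus strand), showed no separation of the groups. It averaged 65.9 ± 6.83 CPM in RL, 63.5 ± 15.6 CPM in CL and 65.5 ± 9.54 CPM in CTL (mean ± SD, n = 3 each), and CL 1 was lowest at 45.5 CPM. Between RL and CTL the log2 fold change was 0.01 ± 0.18 (SE, adjusted p = 0.993). Sema3c lies with Sema3a, Sema3d and Sema3e on chromosome 5 within 5.35 Mb, and Sema3d and Sema3e had log2 fold changes of 0.01 ± 0.23 and 0.36 ± 0.30 (SE) between RL and CTL. The remaining ligand Sema3g, known from arterial endothelium, averaged 3.98 ± 0.752 CPM in RL and 4.78 ± 0.307 CPM in CTL (adjusted p = 0.597). Of the 7 class 3 members, 4 had positive and 3 negative values between RL and CTL, with a median log2 fold change of 0.0070, against -0.0083 over all tested genes.

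Among membrane semaphorins, Sema6c and Sema4a had the smallest p between RL and CTL after Sema6a. Sema6c, a transmembrane class 6 member (chromosome 3, 95160457 to 95174024, plus strand), had 18.5, 17.9 and 15.8 CPM in RL, 19.6, 21.6 and 21.7 CPM in CL, and 19.8, 23.8 and 24.9 CPM in CTL. RL lies below both other groups, by a margin of about 1 CPM at the closest libraries. Its log2 fold change was -0.39 ± 0.11 (SE, adjusted p = 0.165) between RL and CTL and -0.27 ± 0.11 (adjusted p = 0.999) between RL and CL. With the mouse as a block RL against CL gave -0.27 (adjusted p = 0.493). The irradiated limb had the lower value in all 3 mice.

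Sema4a, which is known from immune cells and binds plexin D1 (chromosome 3, 88435959 to 88461182, minus strand), had 3.10, 2.57 and 3.18 CPM in RL, 3.45, 1.50 and 2.43 CPM in CL, and 1.93, 1.55 and 1.25 CPM in CTL. RL lies above CTL without overlap, and CL 1 was the highest library of all. The log2 fold change between RL and CTL was 0.90 ± 0.28 (SE) with adjusted p = 0.192, and adjusted p = 0.0361 without CL 1. The edgeR value was 0.0297 with only the libraries of RL and CTL, and 0.111 when RL 1 was removed along with CL 1. Leaving out CL 2 gave 0.0700 and leaving out CL 3 gave 0.261. With any single RL or CTL library left out Sema4a was not called, at 0.234 to 0.535. Between CL and CTL the log2 fold change was 0.64 ± 0.28 (SE, adjusted p = 0.734), and 0.30 without CL 1. Macrophage markers were higher in RL and lymphocyte markers in CL 1, as given above, and their part in these values was not tested.

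Sema4b and Sema4d also had their highest values in CL 1. Sema4b had 3.02 CPM in CL 1 and 1.25 to 1.61 CPM in the other 8 libraries. Sema4d, also called CD100, the lymphocyte semaphorin that binds plexin B1, had 19.4 CPM in CL 1, 10.3 to 14.7 CPM in RL, 11.8 and 11.9 CPM in the other CL libraries, and 12.0 to 15.6 CPM in CTL. Sema4c, which takes part in myoblast differentiation in mice, averaged 3.02 ± 0.227 CPM in RL, 3.71 ± 0.0445 CPM in CL and 3.54 ± 0.274 CPM in CTL (mean ± SD, n = 3 each). RL lies below both other groups without overlap, with adjusted p = 0.552 against CTL and 0.999 against CL.

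Sema6d, the ligand of plexin A1, is the second most abundant membrane member per kilobase of exon (chromosome 2, 124089969 to 124667770, plus strand). Sema4d was within its spread, at 1.75 ± 0.358 against 1.83 ± 0.225 CPM per kilobase (SD, n = 9). By longest transcript Sema4d ranked just above Sema6d. Sema6d had 22.8, 18.0 and 21.2 CPM in RL, 19.4, 18.4 and 17.8 CPM in CL, and 22.5, 18.3 and 15.6 CPM in CTL, and the groups overlap. Sema7a, which is anchored by a lipid and binds plexin C1 and integrins, averaged 2.87 ± 1.01 CPM in RL, 3.88 ± 0.809 CPM in CL and 3.85 ± 0.256 CPM in CTL (mean ± SD, n = 3 each). Its log2 fold change between RL and CTL was -0.42 ± 0.23 (SE, adjusted p = 0.527), and the groups overlap. Sema5a and Sema6b had log2 fold changes of 0.15 ± 0.14 and -0.10 ± 0.22 (SE) between RL and CTL. Of the 10 tested membrane semaphorins, 3 had positive and 7 negative values between RL and CTL. Their median log2 fold change was -0.13, against -0.0083 over all tested genes. These values include Sema6a, whose fall in RL chose the families.

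The untested Sema5b, a transmembrane guidance cue, had 3, 3 and 3 counts in RL, 5, 5 and 9 in CL, and 9, 5 and 11 in CTL. These counts are too few for a comparison. Sema4f had 1 to 11 counts per library, with 11 in CL 1, and Sema4g 2 to 8.

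No plexin passed in any comparison by edgeR with all libraries and its expression filter. Between RL and CTL, 7 of the 9 had positive and 2 negative log2 fold changes, with a median of 0.22, against -0.0083 over all tested genes. An unadjusted p under 0.05 was reached by 0 of the 9, beside 12.0% of all genes. The most abundant per length was Plxnd1, the endothelial receptor of Sema3e (chromosome 6, 115954811 to 115995005, minus strand). It had 30.4, 25.5 and 28.8 CPM in RL, 33.2, 19.2 and 26.1 CPM in CL, and 22.3, 23.2 and 22.4 CPM in CTL. RL lies above CTL without overlap and CL spans both. RL against CTL gave a log2 value of 0.32 ± 0.16 (SE, adjusted p = 0.481).

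Plxnc1, the receptor of Sema7a on myeloid cells (chromosome 10, 94790866 to 94944835, minus strand), had 2.23, 2.20 and 2.91 CPM in RL, 4.65, 1.18 and 1.66 CPM in CL, and 1.36, 1.41 and 1.67 CPM in CTL. CL 1 alone lies above RL, and the other CL libraries lie in or below the range of CTL. Between CL and CTL the log2 fold change was 0.77 ± 0.41 (SE, adjusted p = 0.782), and -0.06 without CL 1. Against CTL, RL had 0.73 ± 0.41 (SE, adjusted p = 0.529), and 0.75 with adjusted p = 0.0547 without CL 1. Plxnb2, a receptor of class 4 semaphorins, was likewise highest in CL 1, with 14.1, 11.6 and 13.1 CPM in RL, 19.1, 8.80 and 11.6 CPM in CL, and 10.5, 9.61 and 9.69 CPM in CTL (adjusted p = 0.550 between RL and CTL). The part of the lymphocyte and macrophage markers in these values was not tested.

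Plxna1, a co-receptor of class 3 ligands and receptor of Sema6d (chromosome 6, 89316314 to 89362620, minus strand), had 29.6, 18.8 and 25.0 CPM in RL, 30.2, 21.7 and 24.6 CPM in CL, and 21.8, 25.1 and 25.8 CPM in CTL. Its groups overlap in all comparisons (adjusted p = 0.985 between RL and CTL). Plxna3, a scarce X-linked plexin (74329066 to 74344689, plus strand), had 0.998, 1.08 and 0.947 CPM in RL, 1.73, 1.26 and 0.909 CPM in CL, and 0.803, 1.10 and 0.892 CPM in CTL. The log2 fold change was 0.49 ± 0.26 (SE, adjusted p = 0.782) between CL and CTL and 0.22 without CL 1. Plxnb1 and Plxnb3 averaged 1.02 ± 0.0442 and 0.978 ± 0.249 CPM in RL, and 1.04 ± 0.102 and 1.05 ± 0.171 CPM in CTL (mean ± SD, n = 3 each).

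Of the neuropilins, Nrp2, the co-receptor of Sema3f and of lymphatic growth factors (chromosome 1, 62703285 to 62818695, plus strand), had 20.6, 18.5 and 23.2 CPM in RL, 18.4, 11.6 and 14.3 CPM in CL, and 14.9, 12.5 and 12.7 CPM in CTL. RL lies above both other groups, with CL 1 at 18.4 CPM just under RL 2 at 18.5 CPM. Mean and SD over 3 libraries were 20.8 ± 2.33 CPM in RL, 14.8 ± 3.43 CPM in CL and 13.3 ± 1.33 CPM in CTL.

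Between RL and CTL the log2 fold change of Nrp2 was 0.64 ± 0.16 (SE), for which edgeR gave adjusted p = 0.105 and DESeq2 adjusted p = 0.0216, past the threshold. Without CL 1, Nrp2 rose by edgeR against CTL, with adjusted p = 0.0104. Leaving out CL 2 gave 0.0424 against CTL and leaving out CL 3 gave 0.159. With any single RL or CTL library left out Nrp2 was not called against CTL, at 0.124 to 0.425. Against CL, Nrp2 rose without CL 1, with a log2 fold change of 0.70 and adjusted p = 0.0372. Against CL it was not called when the whole mouse of CL 1 was left out (adjusted p = 0.117) or with the mouse as a block (adjusted p = 0.128). With all libraries the value against CL was 0.49 ± 0.16 (SE, adjusted p = 0.843). The irradiated limb had the higher value in all 3 mice, with log2 ratios of 0.16, 0.68 and 0.69. In the authors' deposited table Nrp2 had a log2 fold change of 0.52 between RL and CTL with adjusted p = 0.0509. Nrp2 is also made by macrophages and lymphatic vessels, and the part of the macrophage markers in its values was not tested.

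Nrp1, the co-receptor of Sema3a and of vascular endothelial growth factor (chromosome 8, 128358604 to 128503363, plus strand), had 39.3, 42.9 and 48.3 CPM in RL, 36.8, 41.4 and 39.4 CPM in CL, and 46.1, 43.9 and 41.3 CPM in CTL. The groups overlap, and the log2 fold change between RL and CTL was -0.01 ± 0.11 (SE, adjusted p = 0.988). In CL it was -0.16 ± 0.11 (SE, adjusted p = 0.844) against CTL.

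**Figure D4:**
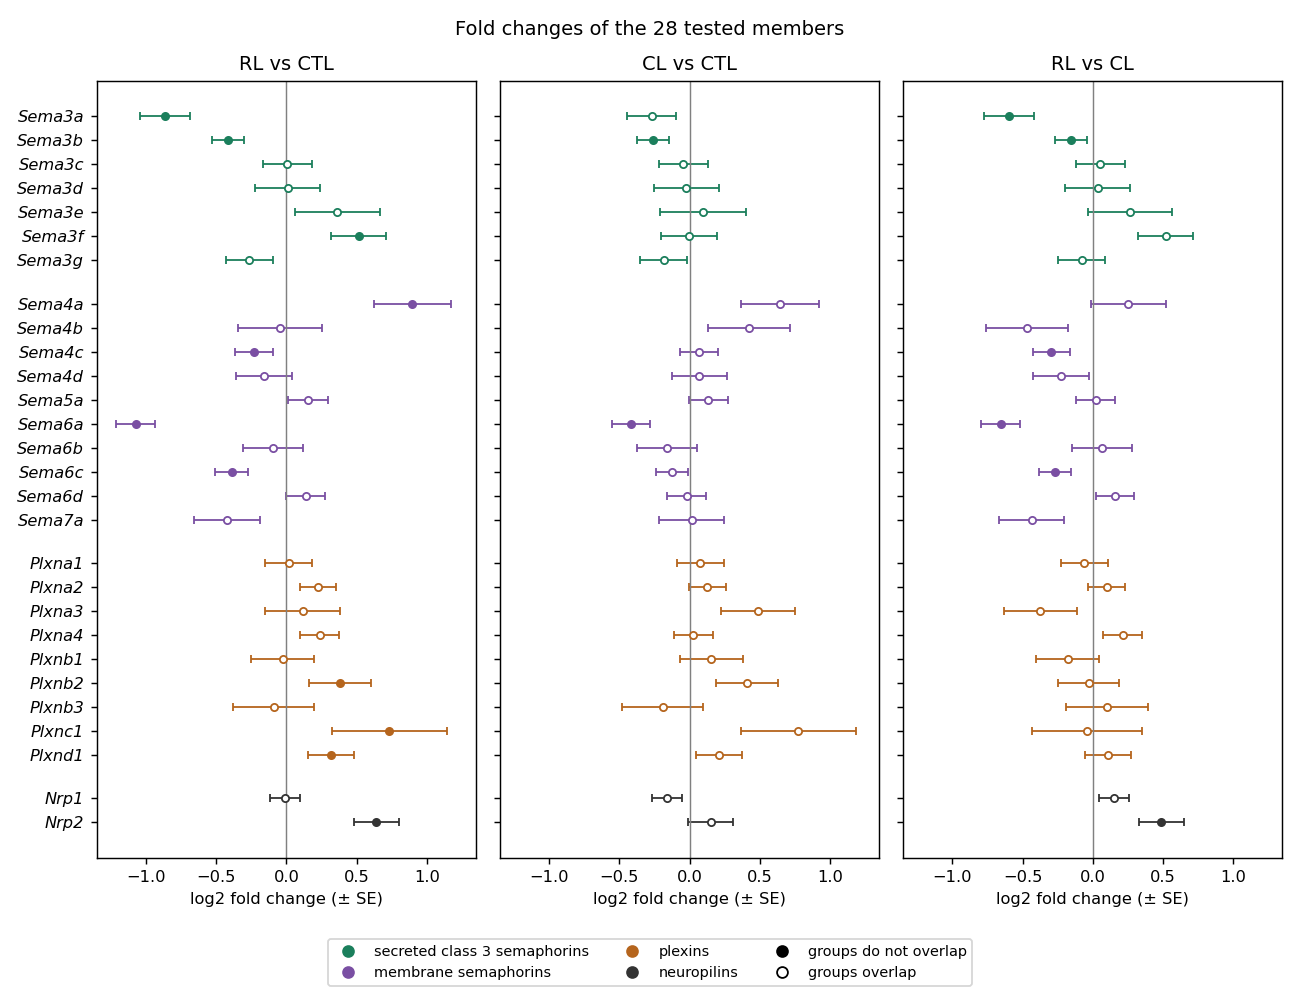
Log2 fold changes with SE of the 28 tested members in RL against CTL, CL against CTL and RL against CL, by family, filled where the 3 libraries of both groups do not overlap. Sema6a at -1.07 and Sema3a at -0.86 lie lowest between RL and CTL, and Sema4a at 0.90, Plxnc1 at 0.73 and Nrp2 at 0.64 highest.

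Counted over the families, the 27 tested members other than Sema6a gave 0 calls between RL and CTL by edgeR, where 0.514% of all tested genes were called. An unadjusted p under 0.05 was reached by 6 of the 27, 3 higher and 3 lower, beside 12.0% of all genes, 6.56% higher and 5.44% lower. The libraries of RL and CTL did not overlap for 10 of the 27, 6 higher and 4 lower, beside 20.7% of all genes, 10.5% higher and 10.2% lower. DESeq2 called 2 of the 27, Sema3a and Nrp2, beside 1.96% of its genes. Without CL 1 edgeR called 3, Sema3a, Sema4a and Nrp2, beside 3.96% of all genes, and the same 3 with only the 6 libraries of RL and CTL, beside 3.47%. Without the mouse of CL 1 and RL 1 it called 1, Nrp2, beside 1.93%, and without the expression filter 4, Plxnc1 being the fourth, beside 3.14%. Since this contrast drew attention to the families, nothing is read from these counts. The authors' deposited table lists 361 genes with an adjusted p under 0.05 between RL and CTL, and of the 27 members Sema3a is among them.

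Between RL and CL, edgeR called 0 of the 27 members and 0.0734% of all genes. An unadjusted p under 0.05 was reached by 5 of the 27, Sema3f and Nrp2 with higher and Sema3a, Sema4c and Sema6c with lower values in RL, beside 4.26% of all genes, 2.08% higher and 2.19% lower. The libraries of RL and CL did not overlap for 5 of the 27, 1 higher and 4 lower, beside 8.30% of all genes, 3.94% higher and 4.36% lower. These libraries include those that drew attention to Sema6a. With the mouse as a block 0 of the 27 were called and 0.436% of all genes. DESeq2 also called 0 of the 27, beside 0.219% of its genes, and so did edgeR with only the 6 libraries of both groups, beside 0.0272%, and after leaving out the mouse of CL 1 and RL 1, beside 0.133%. Without CL 1 it called 1, Nrp2, beside 0.897%, and without the expression filter 2, Sema3a and Nrp2, beside 1.42%.

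The irradiated limb was higher in all 3 mice for 4 of the 28 tested members, Sema3f, Plxna2, Nrp1 and Nrp2, beside 13.5% of all genes. It was lower in all 3 mice for 7 of the 28, Sema6a, Sema3a, Sema3b, Sema3g, Sema4c, Sema6c and Sema7a, beside 14.8% of all genes. Sema6a is among the 7 although its fall in RL chose the families, and nothing is read from these counts. The mouse of RL 1 and CL 1 gave the lowest ratio for Sema4b at -1.27 and for Plxnc1 at -1.06, where the other mice had positive ratios.

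**Figure D5:**
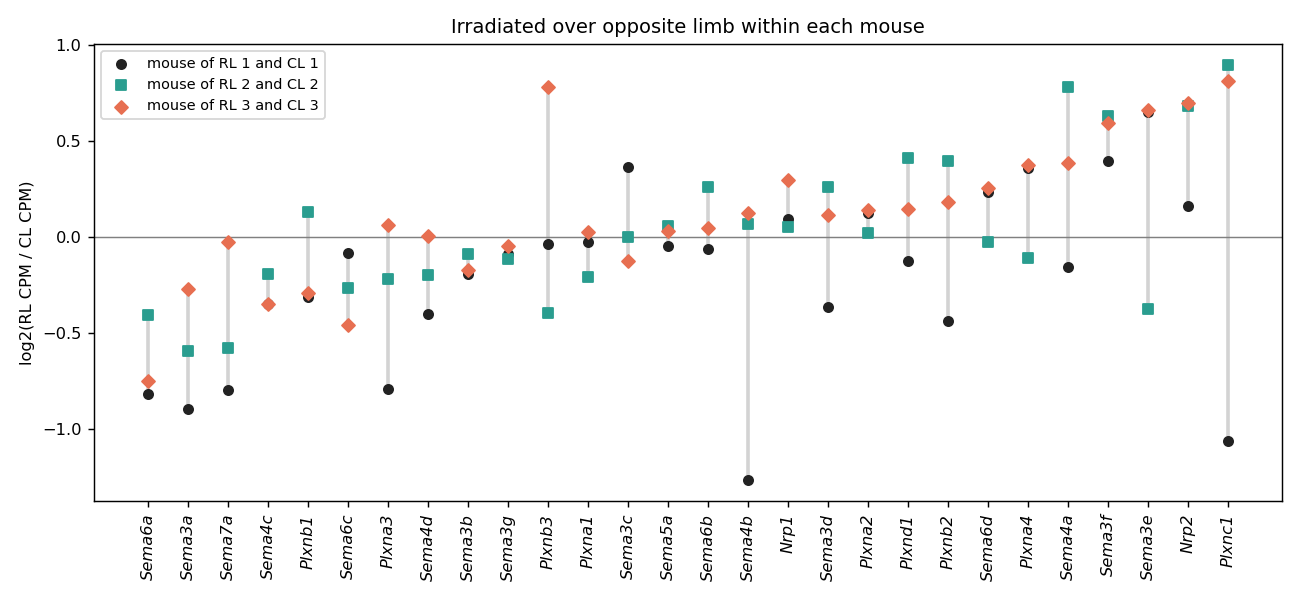
Log2 ratio of RL over CL CPM within each of the 3 irradiated mice for the 28 tested members, ordered by the median ratio, with 1 symbol per mouse and a line over the range. Sema6a and Sema3a lie below 0 in all 3 mice and Sema3f and Nrp2 above 0, while the mouse of RL 1 and CL 1 lies far below the other 2 for Sema4b and Plxnc1.

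Between CL and CTL no member was called by edgeR, DESeq2 or in the authors' deposited table, and edgeR called 0 genes in all. Of the 27 members other than Sema6a, 2 reached an unadjusted p under 0.05, Sema3b with lower and Sema4a with higher values in CL, beside 6.65% of all genes, 4.46% higher and 2.19% lower. The libraries of CL and CTL did not overlap for 1 of the 27, Sema3b with lower values in CL, beside 9.40% of all genes and 5.50% lower. DESeq2 called 0.122% of its genes in this comparison. Without the expression filter edgeR called 1 member, Plxnc1, beside 2.51% of all genes.

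Partners of these families were read from 5 lists with 102 genes, of which 90 were tested. By edgeR with all libraries and its expression filter 0 of the 90 passed in each comparison, and DESeq2 called 3 between RL and CTL, Tyrobp, Met and Rnd1, and 0 in the others. Over all genes edgeR called 0.514% between RL and CTL, 0% between CL and CTL and 0.0734% between RL and CL, and DESeq2 1.96%, 0.122% and 0.219% in the same order. Without CL 1 edgeR called 6 of the pathway genes between RL and CTL, beside 3.96% of all genes. These were Tyrobp (adjusted p = 0.00438), Met (adjusted p = 0.0160), Rnd1 (adjusted p = 0.0191), Sdc3, Fes and Cfl1. Between RL and CL it then called 2, Sdc3 and Fes, beside 0.897%. With the whole mouse left out Tyrobp alone was called between RL and CTL, beside 1.93%. An unadjusted p under 0.05 was reached between RL and CTL by 20 of the 90, 11 higher and 9 lower, between CL and CTL by 6, and between RL and CL by 2, beside 12.0%, 6.65% and 4.26% of all genes. Over the 90 genes the median log2 fold change between RL and CTL was 0.04, against -0.0083 over all tested genes.

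Among 15 tested alternative receptors and co-receptors, Tyrobp and Met had the smallest p. Tyrobp, the adaptor of myeloid receptors that joins plexin A1 in a signalling complex, had 4.40, 2.94 and 4.98 CPM in RL, 5.24, 1.74 and 2.75 CPM in CL, and 1.78, 1.16 and 1.22 CPM in CTL. RL lies above CTL, with a log2 fold change of 1.56 ± 0.36 (SE) and adjusted p of 0.0859 by edgeR and 0.00412 by DESeq2. Met, the growth factor receptor that pairs with plexin B1, had 21.8, 24.2 and 21.7 CPM in RL, 22.5, 27.4 and 29.6 CPM in CL, and 31.6, 29.2 and 35.5 CPM in CTL. RL lies below CTL, with a log2 fold change of -0.51 ± 0.12 (SE) and adjusted p of 0.0933 by edgeR and 0.0122 by DESeq2. Tyrobp is a myeloid gene and Met is made by satellite cells, and the part of those cells in these values was not tested.

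Among 9 neuropilin ligands and growth factor receptors, Flt1, a receptor of vascular endothelial growth factor, averaged 29.3 ± 3.52 CPM in RL, 34.9 ± 7.36 CPM in CL and 39.0 ± 5.04 CPM in CTL (mean ± SD, n = 3 each), with adjusted p = 0.299 between RL and CTL. Flt4, the lymphatic receptor that pairs with neuropilin 2, averaged 4.70 ± 1.01 CPM in RL and 3.79 ± 0.600 CPM in CTL (adjusted p = 0.601), and its groups overlap.

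Downstream of plexins, 24 effectors and GTPases were tested. Rnd1, a GTPase that binds plexins, had 1.54, 0.784 and 1.02 CPM in RL, 1.15, 0.701 and 0.695 CPM in CL, and 0.427, 0.479 and 0.268 CPM in CTL. RL and CL both lie above CTL, where Rnd1 had at most 0.479 CPM, and how far depth limits its values was not tested. RL against CTL gave a log2 value of 1.49 ± 0.36 (SE), with adjusted p of 0.0928 by edgeR and 0.0357 by DESeq2. Rap1a, the GTPase that plexins inactivate, averaged 22.1 ± 2.03 CPM in RL and 16.8 ± 2.67 CPM in CTL (adjusted p = 0.236). Of the 15 tested kinase and cytoskeletal mediators, Fyn averaged 7.49 ± 1.19 CPM in RL and 5.36 ± 0.627 CPM in CTL, and Rock1 23.3 ± 0.380 CPM in RL and 18.9 ± 2.62 CPM in CTL, with adjusted p of 0.231 and 0.307.

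In the other guidance families, 27 ephrin, netrin, slit and related genes were tested. Efnb2, the arterial ephrin, averaged 3.36 ± 0.759 CPM in RL, 4.08 ± 0.303 CPM in CL and 4.94 ± 0.517 CPM in CTL (mean ± SD, n = 3 each), and RL against CTL gave a log2 value of -0.55 ± 0.17 (SE, adjusted p = 0.196). Neo1, a netrin receptor, averaged 37.7 ± 0.138 CPM in RL and 45.8 ± 1.13 CPM in CTL (adjusted p = 0.279). In this list 17 of the 27 had negative values between RL and CTL and 19 of the 27 between RL and CL. The median log2 fold changes were -0.087 and -0.14, against -0.0083 and -0.0071 over all tested genes.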

How the data were processed

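Total RNA was sequenced from 9 gastrocnemius libraries of 6 mice with a stranded kit, per the labels' protocols. The values tested are raw read counts per gene, deposited by the authors. Per the submitters' processing notes the build was GRCm38.p5 and DESeq2 was used. For aligner, counter and strand setting the sources used here name none. The authors also deposited tables of log2 fold changes, each with a p-value. Their values between RL and CTL for Sema3a (-0.70) and Nrp2 (0.52) were smaller in size than DESeq2 gave here (-0.86 and 0.65). The reason was not tested. Of 49568 rows, 26 had names turned into dates.

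edgeR 4.0.16 (R 4.3.3) was fitted to all 9 libraries with TMM scaling and its expression filter, leaving 14986 genes, with Benjamini-Hochberg adjustment over all of them. SE is the absolute log2 fold change over the square root of F. Replicates are separate mice, and the smallest chi-square per degree of freedom between replicates was 14.7. On simulated data 93.0% of genes changed by 1 log2 unit were recovered between RL and CTL. The changed genes were drawn only from the more abundant ones, so this share says nothing about scarce members or smaller changes. RL and CL libraries of 1 number share a mouse, per the labels, and their deviations from group means correlated at 0.29, 0.43 and 0.07. Libraries of unlike numbers correlated at -0.36 to 0.097, and RL 3 correlated more with CL 1 (0.097) than with CL 3 (0.07). DESeq2 1.42.0, other scaling and filters, the mouse block and leaving out libraries were alternatives.

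Coordinates and exon lengths are from GENCODE vM21. Between 0 and 4 annotated genes overlap each member, with at most 89 counts in any library (Plxna2). Members and lists were chosen with earlier results of these data known. Described by values are Sema6a, the 5 members with the smallest p in each comparison, the 2 most abundant per length in each family, and 2 genes per pathway list. Others named were chosen after their values were seen.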

Additional observations from a re-analysis of the deposited data

How the results depend on the processing

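The direction of Sema6a was the same under every alternative run in all 3 comparisons. Counts of calls moved. Of the 27 other tested members, 0 were called between RL and CTL, against 2 by DESeq2, 4 without the expression filter, 3 with the 6 libraries of both groups, 1 without the mouse of CL 1 and RL 1, and 0 to 3 with single libraries left out, the 3 being Sema3a, Sema4a and Nrp2 without CL 1. Without the filter 1 was called between CL and CTL and 2 between RL and CL, and leaving out libraries gave 0 to 1 between RL and CL, Nrp2 without CL 1. Of the pathway genes, 0 were called between RL and CTL, against 3 by DESeq2, 7 without the filter, 5 with 6 libraries, 1 without that mouse and 0 to 6 with single libraries left out. Without the filter 3 were called between CL and CTL, and leaving out libraries gave 0 to 2 between RL and CL. Over all genes 77 calls between RL and CTL became 329 by DESeq2, 896 without the filter, 505 with 6 libraries, 291 without that mouse and 2 to 600 with single libraries left out. Calls between CL and CTL numbered 0, against 16 by DESeq2, 716 without the filter and 0 to 1 with libraries left out. Calls between RL and CL numbered 11, against 39 by DESeq2, 406 without the filter, 4 with 6 libraries, 20 without that mouse and 1 to 136 with libraries left out. The causes were not tested.

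With the mouse as a replicate block, 64 genes and 0 of the 27 members were called between RL and CL, and Plxnc1 turned to 0.15. Of the described members other than Sema6a, for which no test is given, the block changed no other call or direction.

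Some log2 fold changes changed sign. Most were near 0 with all libraries, but not those of Plxnc1 (0.77), Plxnd1 (0.21) and Nrp2 (0.15) between CL and CTL, which turned without CL 1, nor that of Sema4a (0.25) between RL and CL, which turned without CL 2. Without the mouse of CL 1 and RL 1, Plxna1 was -0.14 and Nrp1 0.063 between RL and CTL, Sema3c 0.15, Plxna1 -0.063, Plxnc1 -0.055, Plxnd1 -6.2e-05 and Nrp2 -0.041 between CL and CTL, and Sema3c -0.061 and Plxnc1 0.85 between RL and CL. Sema3f between CL and CTL was 0.0017 by DESeq2, 0.0030 by DESeq2-type scaling and 0.0092 with 6 libraries. With single libraries left out the ranges between RL and CTL were -0.081 to 0.13 for Sema3c, -0.14 to 0.18 for Plxna1 and -0.086 to 0.061 for Nrp1. Between CL and CTL they were -0.15 to 0.14 for Sema3c, -0.20 to 0.15 for Sema3f, -0.14 to 0.13 for Sema6d, -0.068 to 0.19 for Plxna1, -0.059 to 1.13 for Plxnc1, -0.0045 to 0.40 for Plxnd1 and -0.045 to 0.31 for Nrp2. Between RL and CL they were -0.12 to 0.16 for Sema3c, -0.0096 to 0.61 for Sema4a, -0.22 to 0.10 for Plxna1, -0.39 to 0.81 for Plxnc1 and -0.076 to 0.34 for Plxnd1. Counts per library were 18 to 42 for Sema3e, 30 to 84 for Plxna3 and 1 to 11 for the 3 untested members, and how far depth limits their values was not tested.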
